A study of Homo sapiens with 12 samples.

Results

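The genes examined here encode the subunits, assembly chaperones, activators and inhibitor of the proteasome. They were chosen by name: a probe set counted when its annotation held a single gene symbol of the series PSMA to PSMG followed by a number. This gave 42 genes with 81 of the 54675 probe sets on the array, and the brightest probe set stood for each gene. Of the 42 genes, 41 passed the filter on dim probe sets and were tested among 12132 genes. The exception was PSMA8, the testis form of an alpha subunit, whose signal lay between 12.1 and 33.7 in all 12 arrays and was at the floor of 12.1 in 6 of them. PSMA6 and PSME2 are annotated only on probe sets shared with other genes, and PSMB11, PSMC5, PSMD7 and PSMD13 had no probe set of their own under this rule, so these 6 genes were not analysed here.

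RNA came from 4 established human lines of synovial sarcoma, Fuji, SYO-1, Aska-SS and Yamato-SS, kept for 24 h with ZSTK474, an inhibitor of all class I phosphatidylinositol 3-kinases (PI3Ks), at 3 µM or 0.3 µM, or left at 0 µM as the control. This soft tissue tumour carries a fusion gene of SS18 and an SSX partner, which the study lists as SS18-SSX2 for Fuji and SYO-1 and as SS18-SSX1 for Aska-SS and Yamato-SS. Each line and dose had 1 Affymetrix U133 Plus 2.0 array, so the 4 lines are the replicates of a dose. Every p-value for a change with dose rests on the spread between lines, with no repeat culture of a line. Values are normalized signals, and wherever 4 values follow each other they stand in the order Fuji, SYO-1, Aska-SS and Yamato-SS. Changes are on the log2 scale with their standard error (n = 4 lines), and adjusted p-values are from limma, with line as a blocking factor. An array reports each RNA relative to the others of the same extract, so less of an RNA per cell and fewer cells with it cannot be told apart.

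The proteasome is the main protease for ubiquitin-tagged proteins in the cytosol and nucleus. Its barrel-shaped 20S core is built from outer rings of alpha subunits, which form the gate, and inner rings of beta subunits, some of which cut peptide bonds. The 19S regulatory particle binds ubiquitin, removes it and unfolds the substrate with a ring of ATPases. The immunoproteasome is a form of the core in which the cutting subunits are replaced after interferon signals, and dedicated chaperones assemble the rings. Subunit genes are known to be expressed together, and the transcription factor NFE2L1 (NRF1) binds antioxidant response elements in their promoters. In mouse cells, mTORC1, a kinase complex downstream of PI3K, has been linked to proteasome levels through NFE2L1.

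Promoter windows were read to show the sequence around the annotated starts of the genes described here. RefSeq windows of 300 bases (GRCh38.p14, 250 bases before to 50 after an annotated start, in the direction of the gene) were found for 36 of the 42 genes, and there was none for PSMA7, PSMB1, PSMB6, PSMB7, PSMD4 and PSMG3. The core of the antioxidant response element, spelled TGACNNNGC and searched on both strands, occurred in at least 1 window of 13 of the 36 genes (36.1%), against 16.1% of all 27305 genes with a window. Among the tested genes, 8 of the 23 with a window that fell at 3 µM held it, and 5 of the 12 others. A CCAAT box (letters CCAAT, both strands) was present for 17 of 36 genes (47.2%), against 39.7% of all genes, in 15 of the 23 that fell and 2 of the 12 others. A GC box (GGGCGG) was present for 24 genes (66.7%), against 48.3%, in 14 of the 23 and 9 of the 12. An E-box (CACGTG) was found for 3 genes (8.33%), against 8.77%, in 2 of the 23 and 1 of the 12. A TATA box (TATAAA) was found for 4 genes (11.1%), against 13.99%, in 3 of the 23 and 0 of the 12. The 5 others with the antioxidant core were PSMG2 and PSME1, which rose, and PSMB9, PSMD5 and PSMD9, which did not pass. All these counts are matches of letters in a fixed window and were not tested against the expression changes. As examples, the windows of 4 genes that fell strongly and hold the core are printed with the core in capitals. That of PSME3, which had the largest change and holds none, is printed too. The core of PSMC4 is read on the opposite strand, and the cores of PSMD1 and PSMC4 lie after the annotated start. The window positions are chr2:231056617-231056916 (plus strand) for PSMD1, chr17:38752491-38752790 (plus strand) for PSMB3 and chr19:39970915-39971214 (plus strand) for PSMC4. Those of PSMD12 and PSME3 are chr17:67366528-67366827 (minus strand) and chr17:42833147-42833446 (plus strand).
PSMD1: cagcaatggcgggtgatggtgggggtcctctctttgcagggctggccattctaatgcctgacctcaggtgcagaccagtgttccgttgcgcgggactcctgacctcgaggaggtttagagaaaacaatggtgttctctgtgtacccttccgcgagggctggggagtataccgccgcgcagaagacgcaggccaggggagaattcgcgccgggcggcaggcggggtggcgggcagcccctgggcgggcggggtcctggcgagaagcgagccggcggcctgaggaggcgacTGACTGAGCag
PSMB3: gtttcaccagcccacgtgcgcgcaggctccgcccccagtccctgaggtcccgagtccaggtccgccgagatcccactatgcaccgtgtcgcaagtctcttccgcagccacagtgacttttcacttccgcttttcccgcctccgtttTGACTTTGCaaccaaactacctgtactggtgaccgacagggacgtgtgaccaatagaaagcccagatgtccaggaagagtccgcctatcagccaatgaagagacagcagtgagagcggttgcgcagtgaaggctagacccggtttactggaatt
PSMC4: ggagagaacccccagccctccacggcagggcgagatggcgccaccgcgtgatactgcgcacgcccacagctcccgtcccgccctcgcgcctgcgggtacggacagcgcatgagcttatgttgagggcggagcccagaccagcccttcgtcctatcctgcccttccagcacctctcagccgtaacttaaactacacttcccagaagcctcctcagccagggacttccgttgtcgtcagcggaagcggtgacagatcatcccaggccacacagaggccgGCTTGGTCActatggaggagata
PSMD12: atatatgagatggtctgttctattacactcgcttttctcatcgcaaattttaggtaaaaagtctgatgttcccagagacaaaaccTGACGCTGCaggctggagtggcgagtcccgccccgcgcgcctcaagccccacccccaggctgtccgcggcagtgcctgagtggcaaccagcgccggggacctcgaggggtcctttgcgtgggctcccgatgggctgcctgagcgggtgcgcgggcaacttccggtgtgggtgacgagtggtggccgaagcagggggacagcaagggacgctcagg
PSME3: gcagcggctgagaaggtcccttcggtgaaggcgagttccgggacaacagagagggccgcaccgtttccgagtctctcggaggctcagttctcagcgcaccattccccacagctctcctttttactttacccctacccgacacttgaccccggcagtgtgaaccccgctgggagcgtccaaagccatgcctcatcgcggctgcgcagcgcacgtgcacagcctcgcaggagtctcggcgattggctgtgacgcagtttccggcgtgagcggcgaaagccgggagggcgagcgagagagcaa

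At 3 µM ZSTK474 most proteasome genes were lower than at 0 µM. Of the 41 tested, 26 (63.4%) fell, 4 rose and 11 stayed short of the threshold, whereas 21.1% of all genes fell and 22.6% rose. The median change of the 41 genes was -0.43, against 0.01 for all genes, and by line it was -0.48 for Fuji, -0.37 for SYO-1, -0.49 for Aska-SS and -0.38 for Yamato-SS. All 30 genes that passed moved the same way in 4 of 4 lines. So did most of all genes that passed, 2343 of the 2561 that fell and 2528 of the 2743 that rose. The genes that rose were PSMG2, PSME1, PSMD4 and PSMF1. By structural group, the members that fell were 5 of 6 in the alpha ring, 4 of 7 in the beta ring, 0 of 3 among the immunoproteasome subunits, 4 of 5 among the ATPases, 8 of 9 among the non-ATPase subunits, 3 of 7 among the assembly factors and 2 of 4 among the activators and the inhibitor. Among the immunoproteasome subunits, PSMB8 was at the floor in 6 arrays and PSMB9 lay near it in Yamato-SS. A fall could not be read there, so the 0 of 3 is not comparable with the other groups. No difference between these groups was tested. When line was left out of the model, 9 of the 41 genes fell and 1 rose, and of all 12132 genes 209 fell and 174 rose. Across the 41 genes, which share the same arrays, the correlation of mean log2 signal with the change was -0.07 (Pearson's r) and 0.02 (Spearman's rho).

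**Figure D1:**
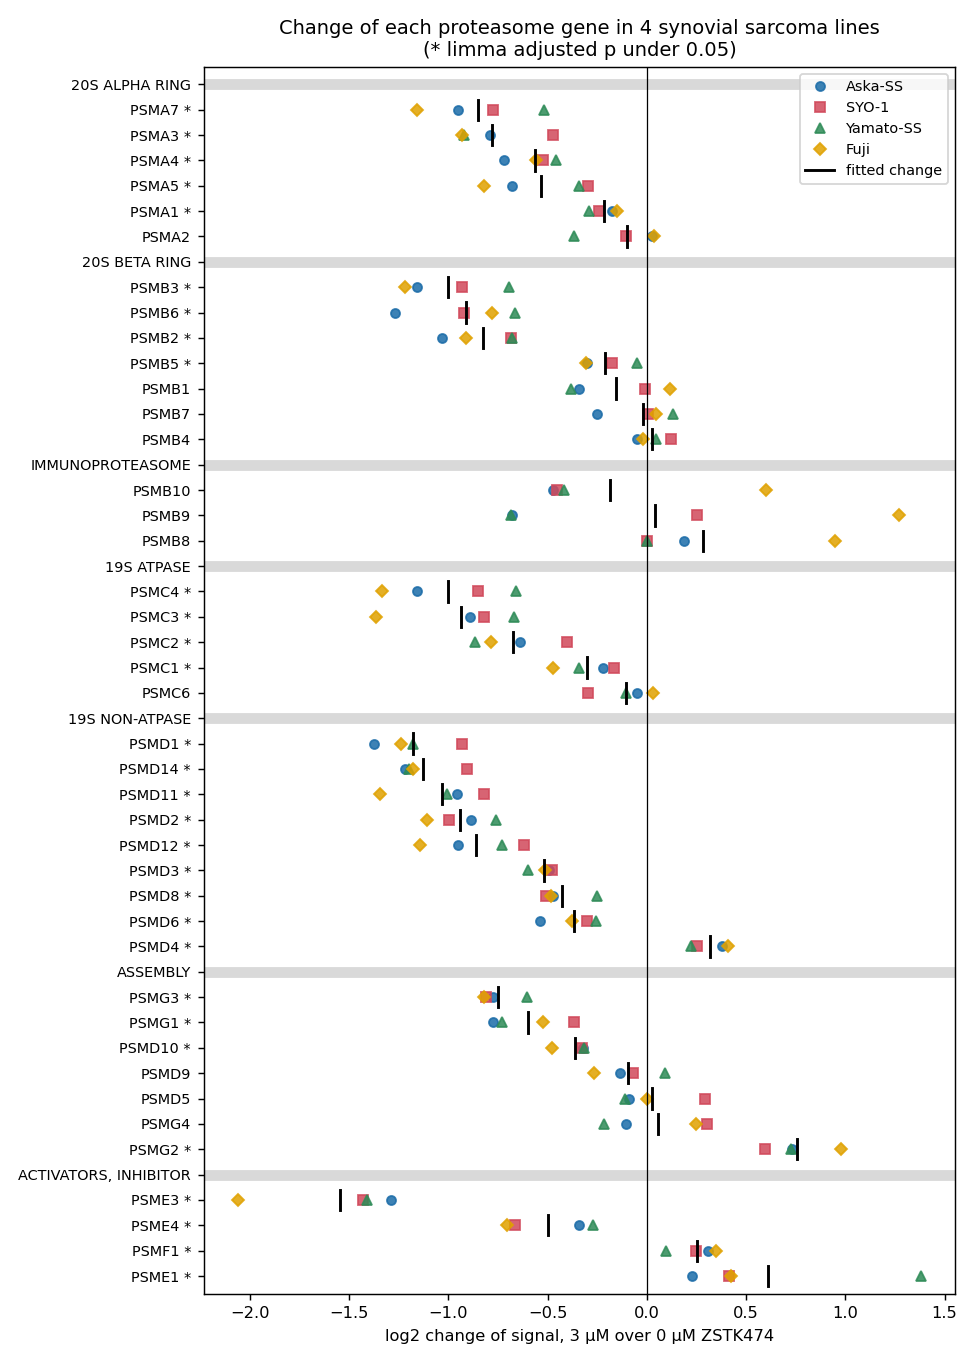
Log2 change of the signal at 3 µM over 0 µM ZSTK474 (x axis) for each of the 41 tested proteasome genes (y axis, by structural group). Symbols are the 4 cell lines, black bars the fitted change, and an asterisk marks an adjusted p under 0.05. Most points of the alpha ring, ATPase and non-ATPase groups lie left of 0, and those of PSMG2, PSMD4, PSMF1 and PSME1 lie right of it in all 4 lines.

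In the alpha ring, which forms the outer face and gate of the core, PSMA3, PSMA4, PSMA7, PSMA5 and PSMA1 fell and PSMA2 did not pass. The signal of PSMA3 was 10731, 10101, 10934 and 9936 at 0 µM, 7656, 8949, 7864 and 7526 at 0.3 µM and 5628, 7282, 6321 and 5245 at 3 µM (log2 change -0.78 ± 0.08, adjusted p = 2.48e-05). All 4 arrays at 3 µM lay below all 4 at 0 µM. PSMA4 likewise had no overlap, with 7471, 8644, 8457 and 10906 at 3 µM and 10994, 12428, 13934 and 15006 at 0 µM (log2 change -0.57 ± 0.06, adjusted p = 4.26e-05). PSMA7 showed the largest fall among the tested genes of the ring, to 5207, 5960.1, 7453 and 12392 at 3 µM against 11629, 10186, 14418 and 17729 at 0 µM (log2 change -0.85 ± 0.11, adjusted p = 8.09e-05). The ranges of PSMA7 overlapped because Yamato-SS was highest at each dose, although each line fell. PSMA5 measured 3876, 4276, 2376 and 6300.3 at 3 µM and 6851, 5249, 3802 and 7996 at 0 µM (log2 change -0.53 ± 0.09, adjusted p = 0.000666). PSMA1 fell less, with a change of -0.21 ± 0.06 and an adjusted p of 0.0107, and this call was lost without SYO-1 or without Yamato-SS. The log2 differences of PSMA2 were 0.04, -0.10, 0.03 and -0.37 in the 4 lines (adjusted p = 0.331). Its other probe set averaged -0.72 and was lower in 4 of 4 lines, so the probe sets of PSMA2 differ.

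Of the 7 beta ring genes, 4 fell and 3 did not pass, and the falls of PSMB3, PSMB6 and PSMB2 were each larger than that of PSMB5. PSMB3, a structural subunit, had a signal of 12044, 12154, 11545 and 10477 at 0 µM, 8046, 9779, 8807 and 8687 at 0.3 µM and 5178, 6378, 5166 and 6461 at 3 µM (log2 change -1.001 ± 0.08, adjusted p = 9.02e-06). PSMB2, another structural subunit, gave 4846, 4787, 2846 and 5079 at 3 µM against 9121, 7688, 5818 and 8123 at 0 µM (log2 change -0.83 ± 0.08, adjusted p = 1.9e-05). Neither gene overlapped between these doses, and Aska-SS was the lowest line for PSMB2 throughout. PSMB6, the subunit with caspase-like activity, fell to 4574, 5132, 3601 and 4859 at 3 µM, against 7864, 9718, 8687 and 7696 at 0 µM (log2 change -0.91 ± 0.09, adjusted p = 2.65e-05). PSMB5, which carries the chymotrypsin-like activity that bortezomib blocks, was 7139, 7792, 6832 and 8145 at 3 µM and 8847, 8792, 8433 and 8419.8 at 0 µM (log2 change -0.21 ± 0.07, adjusted p = 0.0224). The fall of PSMB5 was thus small, was -0.05 in Yamato-SS, and lost its call without Aska-SS, SYO-1 or Fuji. PSMB7, which carries the trypsin-like activity, had a difference of -0.02 ± 0.07 (adjusted p = 0.861). That of PSMB1 was -0.15 ± 0.09 (adjusted p = 0.204) and that of PSMB4 0.02 ± 0.05 (adjusted p = 0.753), and both are structural subunits. The signal of PSMB4 was 17837, 13121, 14253 and 12715 at 0 µM, 18464, 13796, 14381 and 12110.1 at 0.3 µM and 17586, 14295, 13758 and 13109.6 at 3 µM, with Fuji above the other lines at each dose. Of its other probe sets, the brighter one had a mean difference of -0.0036 and was lower in 3 of 4 lines, and a dimmer one had -0.41 and was lower in 4 of 4.

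The immunoproteasome subunits PSMB8, PSMB9 and PSMB10, which take the places of PSMB5, PSMB6 and PSMB7, did not pass at any dose. PSMB8 was at the floor of 12.1 in all 6 arrays of SYO-1 and Yamato-SS. Aska-SS had signals of 1596 at 0 µM, 1382 at 0.3 µM and 1816 at 3 µM, and Fuji had 545, 712 and 1050.2 at the same doses. A change of PSMB8 could therefore be read in Aska-SS and Fuji only, and both lines gave more signal at 3 µM than at 0 µM. PSMB9 had signals of 261, 182, 448 and 25.0 at 0 µM, 430.1, 207, 357 and 61.8 at 0.3 µM and 629, 217, 279.6 and 15.6 at 3 µM (log2 change 0.04 ± 0.37, adjusted p = 0.942). PSMB10 was 537, 879, 976 and 832 at 0 µM, 683, 772, 933 and 780.4 at 0.3 µM and 814, 642, 704 and 623 at 3 µM (log2 change -0.19 ± 0.16, adjusted p = 0.382). In Fuji all 3 genes were higher at 3 µM than at 0 µM. PSMB9 and PSMB10 were lower in Aska-SS, and PSMB10 was also lower in SYO-1 and Yamato-SS. The PSMB9 signals of Yamato-SS (25.0, 61.8 and 15.6 by dose) lie near the floor of 12.1 and give no measured change. Without Fuji the change of PSMB10 was -0.45. Fuji was the only line in which PSMB10 rose, so leaving it out gives no separate evidence of a fall.

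The 19S ATPases form the ring that unfolds substrates and opens the core. PSMC4 had a signal of 2586, 2463, 3068 and 3220.3 at 0 µM, 1518, 2153, 2383 and 2523 at 0.3 µM and 1025, 1363, 1375 and 2040.3 at 3 µM (log2 change -1.001 ± 0.12, adjusted p = 5.19e-05). PSMC3 measured 1729, 3728, 2904 and 3298 at 3 µM and 4457, 6588, 5378 and 5241 at 0 µM (log2 change -0.94 ± 0.11, adjusted p = 4.57e-05). For both genes every array at 3 µM was below every array at 0 µM, and Fuji was the lowest line at 3 µM. PSMC2 fell in each line, to 4134, 7537, 5234 and 15174 at 3 µM against 7127, 9971, 8149 and 27624 at 0 µM (log2 change -0.67 ± 0.08, adjusted p = 4.73e-05). PSMC1 had the smallest of the falls in this ring, with 4984, 5514, 5962 and 5460.0 at 3 µM and 6921, 6187, 6959.6 and 6917 at 0 µM (log2 change -0.30 ± 0.07, adjusted p = 0.00497). PSMC6 did not pass, and its log2 differences were 0.03, -0.30, -0.05 and -0.10 (adjusted p = 0.253).

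The 19S non-ATPase subunits had the lowest median of the 7 groups, -0.86, and the 8 members that fell spanned -1.18 to -0.37. PSMD1, a large scaffold of the base, had a signal of 5181, 4564, 3277 and 4266 at 0 µM, 3736, 4169.7, 2367 and 3496 at 0.3 µM and 2192, 2389.5, 1265 and 1887 at 3 µM (log2 change -1.18 ± 0.08, adjusted p = 6.47e-06). PSMD14, the metalloprotease that cuts ubiquitin chains from substrates, gave 7761, 7460.2, 7745 and 6394 at 0 µM, 5424, 6057, 5438 and 4938 at 0.3 µM and 3427, 3973, 3324 and 2783 at 3 µM (log2 change -1.13 ± 0.07, adjusted p = 4.93e-06). Both genes fell step by step in every line and did not overlap between 3 and 0 µM. PSMD2, the other large scaffold and a docking site for ubiquitin shuttles, was 1666, 2003, 3260.2 and 3313 at 3 µM and 3593, 4004, 6037 and 5617 at 0 µM (log2 change -0.94 ± 0.09, adjusted p = 1.48e-05). PSMD11, a lid subunit that contacts the core, was 2282, 2831, 3247 and 2512 at 3 µM and 5800.5, 5004, 6310.2 and 5050.2 at 0 µM (log2 change -1.03 ± 0.11, adjusted p = 3.09e-05). The arrays at 3 µM again lay below those at 0 µM for both. Of the remaining lid subunits, PSMD12 changed by -0.86 ± 0.09, PSMD3 by -0.52 ± 0.08, PSMD8 by -0.43 ± 0.07 and PSMD6 by -0.37 ± 0.06, with adjusted p-values of 3.75e-05, 0.000223, 0.000453 and 0.000596 in that order. PSMD4 was the exception among the non-ATPase subunits. It encodes a ubiquitin receptor, and its signal was 5899.9, 4857, 5211 and 5829 at 0 µM, 6461, 4863, 5447 and 5685 at 0.3 µM and 7846, 5788, 6771 and 6789 at 3 µM (log2 change 0.32 ± 0.06, adjusted p = 0.00165). Each line was higher at 3 µM than at 0 µM, although the ranges of the doses overlapped through SYO-1, the lowest line. The other probe sets of PSMD4 above the filter averaged 0.34 and 0.22, both higher in 4 of 4 lines.

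**Figure D2:**
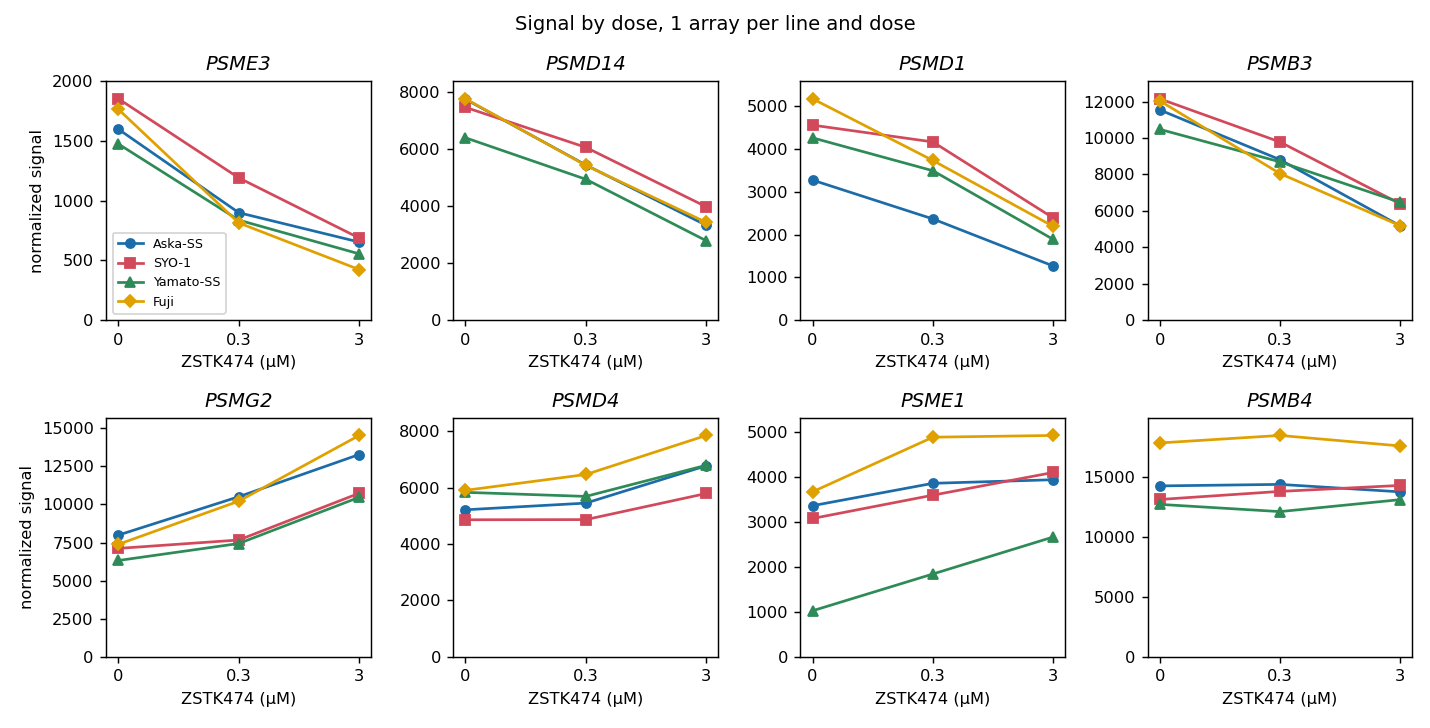
Normalized signal (y axis, from 0) of 8 proteasome genes at 0, 0.3 and 3 µM ZSTK474 (x axis), with 1 point per array and a line joining the arrays of each cell line. PSME3, PSMD14, PSMD1 and PSMB3 were lower at 3 µM in all 4 lines, PSMG2, PSMD4 and PSME1 were higher, and PSMB4 stayed within 12110.1 to 18464.

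Assembly factors moved in both directions. PSMG2, which pairs with PSMG1 to start the alpha ring, rose: its signal was 7383, 7115, 7988 and 6321 at 0 µM, 10216, 7666, 10508 and 7436 at 0.3 µM and 14530.1, 10736, 13279 and 10471 at 3 µM (log2 change 0.76 ± 0.07, adjusted p = 1.84e-05). Its partner PSMG1 fell, with 5551, 6103, 4999 and 6388 at 0 µM, 4025, 5062, 3385 and 4914 at 0.3 µM and 3862, 4727, 2916 and 3849 at 3 µM (log2 change -0.60 ± 0.08, adjusted p = 0.000136). In all 4 lines the partners of this heterodimer moved in opposite directions, and neither gene overlapped between 3 and 0 µM. PSMG3 fell to 949, 1454, 658 and 1139 at 3 µM, against 1676, 2553, 1127 and 1729 at 0 µM (log2 change -0.75 ± 0.09, adjusted p = 4.69e-05), while PSMG4, with which it pairs, had differences of 0.25, 0.30, -0.11 and -0.22 (adjusted p = 0.745). The ranges of PSMG3 overlapped because SYO-1 was highest and Aska-SS lowest at each dose. Among the chaperones of the 19S base, PSMD10 (gankyrin) fell by 0.36 on the log2 scale (adjusted p = 0.00348), with -0.48, -0.33, -0.32 and -0.32 in the 4 lines. The differences of PSMD5 and PSMD9 were 0.02 ± 0.09 (adjusted p = 0.856) and -0.10 ± 0.08 (adjusted p = 0.366).

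The activators and the inhibitor all passed, with 2 in each direction. PSME3 (PA28 gamma), a nuclear activator that opens the core without ubiquitin, had the largest change of the 41 genes. Its signal was 1767, 1855, 1599.8 and 1476 at 0 µM, 814, 1192, 900.0 and 838 at 0.3 µM and 423, 688, 654 and 555 at 3 µM (log2 change -1.55 ± 0.13, adjusted p = 8.7e-06). No array at 3 µM reached any at 0 µM, and the lowest value was that of Fuji. The other probe sets of PSME3 averaged -0.91, -1.87 and -1.82, each lower in 4 of 4 lines. PSME4 (PA200), another nuclear activator, was 1633, 1518, 1759 and 1335 at 3 µM and 2661, 2409, 2227 and 1613 at 0 µM (log2 change -0.50 ± 0.10, adjusted p = 0.00165). PSME1 (PA28 alpha), the interferon-inducible activator of the cytosol, had a signal of 3666, 3073, 3357 and 1022 at 0 µM, 4879, 3591, 3855 and 1840.2 at 0.3 µM and 4918, 4096, 3934 and 2663 at 3 µM (log2 change 0.61 ± 0.15, adjusted p = 0.00556). Yamato-SS started lowest and had the largest change, 1.38, and without it the change was 0.36 with an adjusted p of 0.0097. PSMF1 (PI31), first described as an inhibitor of the core, was 2575, 2482, 3283 and 2990.0 at 3 µM and 2023, 2092, 2652 and 2793 at 0 µM (log2 change 0.25 ± 0.08, adjusted p = 0.0256). The other 3 probe sets of PSMF1 averaged -0.15, -0.19 and -0.41, and with the mean of all its probe sets its change was -0.12 (adjusted p = 0.342), so its direction depends on the probe set. Its call was also lost without Aska-SS, SYO-1 or Fuji, with changes of 0.22 to 0.25.

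At 0.3 µM, 15 of the 41 genes (36.6%) were lower than at 0 µM and 1, PSMG2, was higher, whereas 3.35% of all genes fell and 4.57% rose. The median change was -0.19, against 0.00 for all genes. The 6 smallest adjusted p-values among those that fell were those of PSME3 (log2 change -0.85 ± 0.13, adjusted p = 0.00849), PSMD14 (log2 change -0.43 ± 0.07, adjusted p = 0.0114), PSMD12 (log2 change -0.55 ± 0.09, adjusted p = 0.0116), PSMG1 (log2 change -0.42 ± 0.08, adjusted p = 0.0157), PSMG3 (log2 change -0.42 ± 0.09, adjusted p = 0.0185) and PSMA3 (log2 change -0.38 ± 0.08, adjusted p = 0.0185). The signal of PSMD12, a lid subunit, was 3934, 3132, 3739 and 4023 at 0 µM, 2584, 2355, 2257 and 2943 at 0.3 µM and 1779.7, 2042, 1932 and 2422 at 3 µM. Its values at 0.3 µM were already below all values at 0 µM. The other genes that fell were PSMC2, PSMB3, PSMB2, PSMA4, PSMB6, PSMD3, PSMD1, PSMD11 and PSMC4, with changes of -0.29 to -0.43. Of these 15 genes, 14 were lower in 4 of 4 lines and PSMD11 in 3, and all 15 were also among those that fell at 3 µM. Both comparisons use the same 0 µM arrays, so this overlap is partly set by the design. The overlap for all genes is not given here. Of all 407 genes that fell at 0.3 µM, 403 were lower in 4 of 4 lines. PSMG2 changed by 0.30 ± 0.07 (adjusted p = 0.0293). These counts rest on all 4 lines together: without Aska-SS no proteasome gene passed (limma, 18 lower at an unadjusted p under 0.05, and 1 of all 12132 genes passed), and without SYO-1, Yamato-SS or Fuji 7, 7 and 2 fell, as did 104, 140 and 25 of all genes. Without the filter on dim probe sets 3 proteasome genes fell, with 41 of all 19775 genes, and without the mean-variance trend 3 fell, with 47 of all 12132. When line was left out of the model, 0 of all 12132 genes passed at 0.3 µM (limma, 319 at an unadjusted p under 0.05). PSMG2 passed in none of these fits, with a line left out, without the filter, without the trend or without line in the model.

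Between the doses, 18 of the 41 genes (43.9%) were lower at 3 µM than at 0.3 µM and 2 were higher, against 8.09% and 7.25% of all genes. The median step was -0.22. PSMD1 (log2 change -0.84 ± 0.08, adjusted p = 0.000908) and PSMD14 (log2 change -0.70 ± 0.07, adjusted p = 0.000908) had the smallest adjusted p-values, followed by PSMD2 (log2 change -0.66 ± 0.09, adjusted p = 0.00153) and PSMB3 (log2 change -0.61 ± 0.08, adjusted p = 0.00183). PSMG2 (log2 change 0.46 ± 0.07, adjusted p = 0.0033) and PSMD4 (log2 change 0.28 ± 0.06, adjusted p = 0.0138) were those that rose. PSMD4 showed most of its change in this step, since its difference was 0.04 ± 0.06 at 0.3 µM (adjusted p = 0.72). Among the genes that fell at 3 µM, the difference from 0 to 0.3 µM was the larger of both steps for PSMA1, PSMA4, PSMC1, PSMC2, PSMD3, PSMD6, PSMD12, PSME3, PSMG1 and PSMG3, and whether the steps differ was not tested. For PSMD12 the steps were -0.55 and -0.31, and for PSMA4 -0.29 and -0.28. Without Aska-SS or without SYO-1, 10 proteasome genes fell and 1 rose between these doses. Of all 12132 genes 394 and 347 fell and 315 and 246 rose in these fits.

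**Figure D3:**
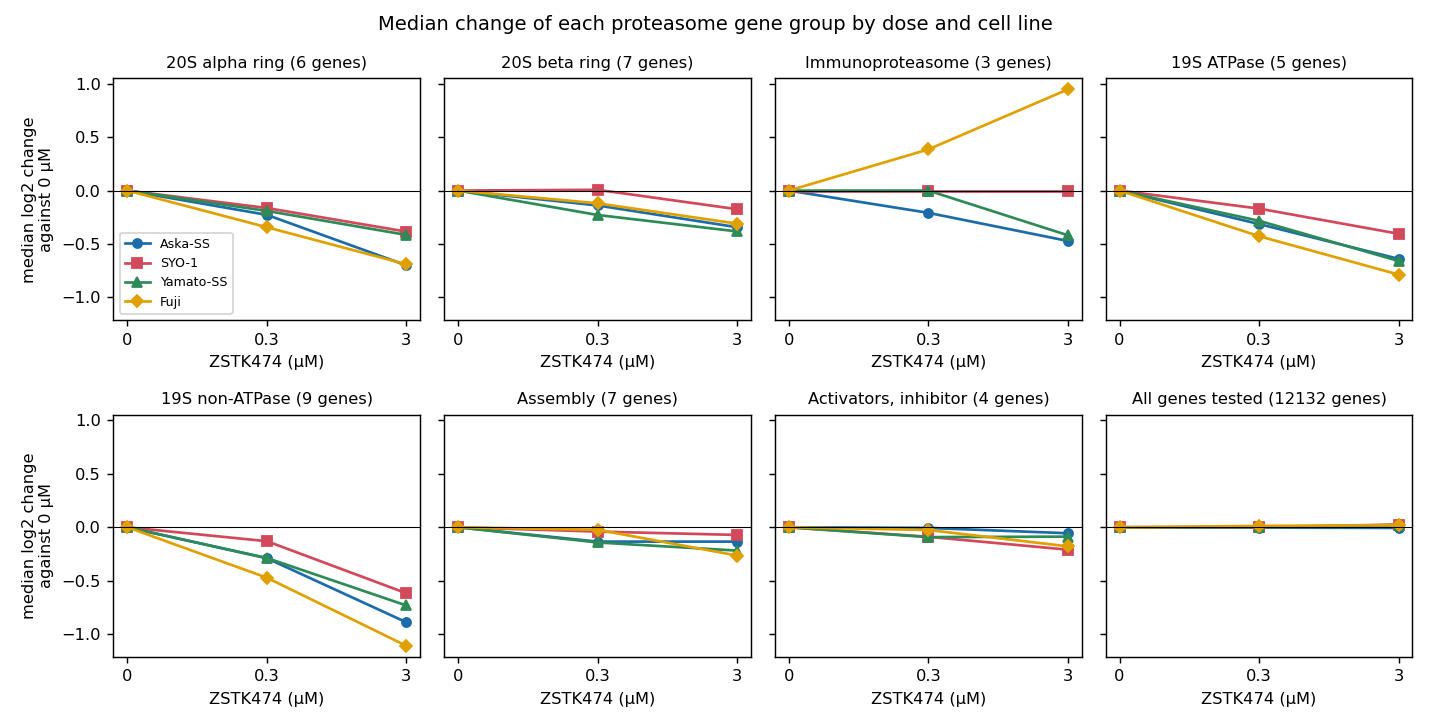
Median log2 change against 0 µM (y axis) at 0, 0.3 and 3 µM ZSTK474 (x axis) for the 7 structural groups and for all 12132 genes tested, with a line for each cell line. At 3 µM the non-ATPase subunits had medians of -1.11 (Fuji), -0.62 (SYO-1), -0.89 (Aska-SS) and -0.73 (Yamato-SS), and the medians of all genes stayed between -0.01 and 0.03. Immunoproteasome medians of 0 in SYO-1, and in Yamato-SS at 0.3 µM, are values of PSMB8 at the floor.

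The change at 3 µM was compared between each line and the other 3, to see whether the response of a gene depended on the line. Of the 41 proteasome genes 0 passed in any line (limma), and of all genes 1.29% did for Fuji, 0.0165% for SYO-1, 0% for Aska-SS and 0.157% for Yamato-SS, shares at which few or none of 41 genes would be called. At an unadjusted p under 0.05, 4, 2, 1 and 3 of the 41 genes were found for these lines in the same order, and 1919, 674, 733 and 1317 of all genes. The nearest to the threshold was PSMB10, with a difference between 3 and 0 µM of 0.60 in Fuji and of -0.45 in the other lines together (Fuji minus the others 1.05 ± 0.21, adjusted p = 0.0511). PSME1 in Yamato-SS followed, with 1.38 there and 0.36 in the other lines (Yamato-SS minus the others 1.02 ± 0.18, adjusted p = 0.0778). Both crossed the threshold when quantile normalization was left out. PSMC3 and PSME3 had their largest falls in Fuji, -1.37 and -2.06, but the differences from the other lines had adjusted p-values of 0.147 and 0.166. In simulated data a difference of this kind in Fuji was found for 22% of genes at a log2 size of 1. The simulation changed few genes and took its spread from a fit without line-specific responses, so this share need not hold in the real data. With 1 array per line and dose, a gene that did not pass may still differ between lines.

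Levels differed between the lines for 30 of the 41 genes (73.2%, limma F test over 3 doses), against 81.7% of all genes. The 3 arrays of a line are cultures at 3 doses and not repeats of 1 condition. The p-values of this test therefore do not measure the spread between cultures of a line. The count of 30 includes PSMB8, whose mean signals were 741, 12.1, 1588 and 12.1. All 6 of its SYO-1 and Yamato-SS arrays were at the floor and it passed the filter through Fuji and Aska-SS alone, so its levels are given without a p-value. PSMC2 had means of 5386, 8736, 6541 and 19768 (adjusted p = 1.04e-08) and PSMD6 of 6719, 6563, 6744 and 15360.5 (adjusted p = 2.83e-08). For both 19S genes Yamato-SS was far above the other lines at every dose, with 27624 for PSMC2 and 16865 for PSMD6 at 0 µM, and both genes fell there as in the other lines. PSMG3 was lowest in Aska-SS and highest in SYO-1 (1224, 1928, 857 and 1393, adjusted p = 3.53e-06). PSMA5 was lowest in Aska-SS and highest in Yamato-SS (5285, 4944, 3095 and 7032, adjusted p = 5.92e-06). PSME1 was lowest in Yamato-SS (4447, 3562, 3706 and 1711, adjusted p = 5.97e-05), where PSMB8 was at the floor and PSMB9 averaged 28.9. The 11 genes that did not pass were PSMA3, PSMB1, PSMB3, PSMB5, PSMB10, PSMC1, PSMD5, PSMD8, PSMD9, PSMD12 and PSME3. Of these, PSMB1 was the most even, with means of 16512, 17430.5, 17644 and 17010.5 (adjusted p = 0.828).

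**Figure D4:**
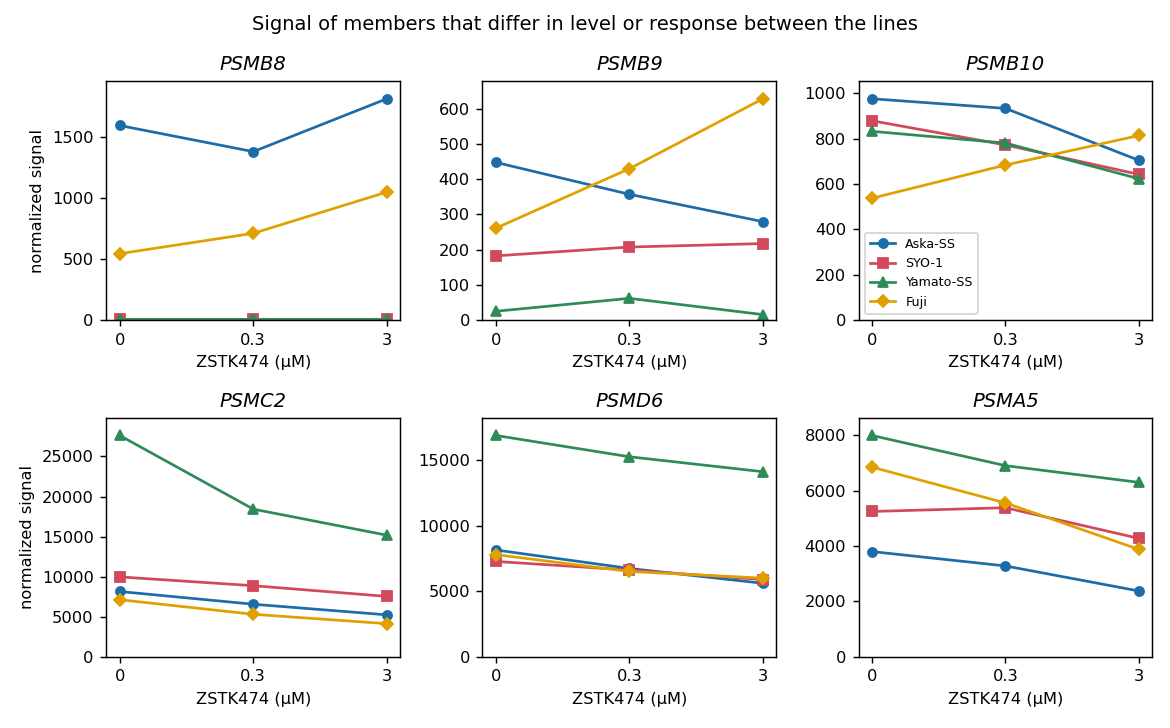
Normalized signal (y axis, from 0) of 6 proteasome genes at 0, 0.3 and 3 µM ZSTK474 (x axis), with a line for each cell line. PSMB8 was at the floor of 12.1 in SYO-1 and Yamato-SS, PSMB9 and PSMB10 were higher at 3 µM than at 0 µM in Fuji, and PSMC2 and PSMD6 were highest in Yamato-SS at each dose.

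Other probe sets of the same genes were read as a check on the brightest one. Of the 41 genes, 18 had further probe sets above the filter. For 14 genes that passed at 3 µM, 20 of 23 such probe sets had the same sign as the brightest one, and the 3 of opposite sign all belonged to PSMF1. Among the genes that did not pass, PSMA2, PSMB4, PSMB1 and PSMD9 each had a further probe set that was lower in 4 of 4 lines, with averages of -0.72, -0.41, -0.24 and -0.65. All of these were dimmer than the probe set that stood for the gene, and PSMB4 had another, brighter one, at -0.0036. The brightest probe sets of PSMA1, PSMA7, PSMD4 and PSME3 are of a class that the manufacturer marks as able to bind related sequences, so related transcripts may share their signal. Probe sets of these 4 genes outside that class averaged -0.29 for PSMA1, -1.06 for PSMA7, 0.34 and 0.22 for PSMD4, and -1.87 and -1.82 for PSME3. Whether those probe sets, or the brightest ones of the other genes, match further transcripts was not checked.

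Genes that act with the proteasome were read from lists grouped by function. Of 11 proteasome-associated genes, 7 fell at 3 µM, 2 rose and 2 did not pass, with a median of -0.55, against 21.1% of all genes that fell, 22.6% that rose and a median of 0.01. POMP, the chaperone that completes the core (log2 change -0.81 ± 0.06, adjusted p = 7.82e-06), USP14, a ubiquitin protease of the 19S particle (log2 change -0.64 ± 0.07, adjusted p = 2.79e-05), and ADRM1, a ubiquitin receptor (log2 change -0.87 ± 0.10, adjusted p = 5.05e-05), fell in 4 of 4 lines. ECPAS, a scaffold that binds the proteasome, rose in 4 of 4 lines (log2 change 0.91 ± 0.08, adjusted p = 1.22e-05), as did TXNL1, a thioredoxin-like protein of the 19S particle (log2 change 0.72 ± 0.08, adjusted p = 5.19e-05). SEM1, UCHL5, UBE3C and PITHD1 fell by 0.67, 0.65, 0.55 and 0.26 on the log2 scale, and AKIRIN2 and PAAF1 did not pass. Of 6 tested genes of the NFE2L1 axis, 1 fell and 0 rose, a share near that of all genes that fell. It was VCP, the ATPase that extracts NFE2L1 from the membrane (log2 change -0.63 ± 0.09, adjusted p = 0.000147). NFE2L1 itself had a difference of 0.23 ± 0.12 (adjusted p = 0.13), NGLY1, the enzyme that removes its sugars, of 0.20 ± 0.08 (adjusted p = 0.0611), and MAFF, a partner of its family, of 0.18 ± 0.24 (adjusted p = 0.573). An RNA level does not measure the processed NFE2L1 protein.

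Genes that act upstream of the proteasome were read in the same way, and in lists this short the counts of 1 or 2 genes that passed are near the 21.1% of all genes that fell and the 22.6% that rose. Of 3 tested genes that supply or activate ubiquitin, UBA1, the main activating enzyme, fell (log2 change -0.38 ± 0.08, adjusted p = 0.00222), while UBB and UBA6 had differences of -0.09 ± 0.04 and -0.09 ± 0.08 and did not pass. Of 4 shuttle factors that carry ubiquitinated proteins, UBQLN1 fell (log2 change -0.20 ± 0.06, adjusted p = 0.0242), and RAD23B, UBQLN2 and UBQLN4 had differences of -0.14, 0.14 and -0.16 and did not pass. Of 6 tested interferon and antigen presentation genes, none fell and 2 rose: ERAP1, which trims peptides for HLA class I (log2 change 0.40 ± 0.11, adjusted p = 0.0109), and B2M, the light chain of class I (log2 change 0.23 ± 0.06, adjusted p = 0.013). TAP1 and TAP2, the peptide transporter, had differences of 0.20 ± 0.13 (adjusted p = 0.226) and -0.44 ± 0.25 (adjusted p = 0.179).

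Array and cell type checks were made over all arrays. The deposited medians were 60.1 to 85.3 with a trimmed mean of 500.1 in each array. TLE1, a marker of synovial sarcoma, had signals of 7260.2 to 24076, and BCL2, SS18 and CD99 were above the filter. TLE1 and CD99 rose at 3 µM, by 0.29 and 0.20, while BCL2 and SS18 had differences of 0.10 and -0.15 and did not pass. Of all genes, 22.6% rose. Leukocyte markers had 0 of 7 genes above the filter, with sums of 190.5 to 306 in the 3 µM arrays and 189 to 426 in the 0 µM arrays, and CD14 was at the floor in all arrays. Of 4 endothelial markers PECAM1 passed, and the 4 summed to 178 to 224 in the 3 µM arrays and 172 to 333 in the 0 µM arrays. The log2 ratio of the 3' to the 5' actin control, a sign of RNA quality, changed at 3 µM by 0.55, 0.02, 0.19 and 0.17 in the 4 lines, and that of GAPDH by 0.07, 0.08, -0.14 and 0.13. The part of RNA quality in the results was not tested. Without Fuji, 25 of the 26 genes that fell at 3 µM still did. The actin ratio also rose at 3 µM in the other lines, so that fit does not bear on RNA quality.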

How the data were processed

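RNA of 12 samples was hybridised to Affymetrix U133 Plus 2.0 arrays. The deposited table holds linear signal intensities, made by the authors with MAS5 per the labels. Its version was not given in the sources used here. Quantile normalization, which the methods name, was not visible in the deposited columns, whose medians differ, and it was applied here. Dim values were raised to the 20th percentile (12.1) and log2 was taken. Control probe sets (62) were removed. By the platform annotation 41097 probe sets have 1 symbol, 1801 several and 11777 none, and RefSeq names updated 0 symbols. The dim filter was the median over all probe sets (65.1 as a signal), and the brightest probe set of a gene with a single symbol was used.

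Each gene was fitted with limma 3.58.1 (R 4.3.3) over all 12 arrays, dose as a factor, line as a block and a mean-variance trend. Benjamini-Hochberg adjustment ran over 12132 genes, and calls were made under 0.05. Replicate numbers stand for lines, which pairs the arrays. After subtracting dose means, r was 0.828 to 0.931 for arrays sharing a line and -0.430 to -0.0892 for arrays of different lines and doses. Subtracting the dose means itself pushes the r of different lines below 0, so this contrast is partly set by the method. The response of each line against the other 3 was an interaction term fitted on all 12 arrays, and levels between lines were compared by an F test. Data with 12132 genes, few of them changed, were simulated for the comparison of 3 with 0 µM. It found 30%, 80%, 96% and 94% of genes changed by 0.5, 1, 1.5 and 2 on the log2 scale. Of its 157 calls 4.46% were false. In the real data 2561 genes fell and 2743 rose, so the shares found and false need not hold there. For arrays, their number limits the precision.

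The members and gene lists were chosen with earlier results of these data known. Full values are given for up to 4 members of each structural group by adjusted p at 3 µM, members that rose, up to 6 that fell at 0.3 µM by adjusted p, and up to 4 genes of each pathway list. Other genes singled out for probe sets or levels were chosen after their values were seen. Alternatives covered the normalization, floor, filter, probe set rule, block, variance model, array weights and each line left out. Promoter sequences are RefSeq windows of GRCh38.p14.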

Additional observations from a re-analysis of the deposited data

Results flagged for a closer look

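Each proteasome gene was looked at in groups of 4 arrays or changes, 1 per cell line, for a line that stood far from the other 3. Of 205 such groups, 16 held such a line, and chance gives about 1 in 20 groups. Changes that stood apart were those of PSMB10 in Fuji (0.60, where the other lines had -0.47 to -0.42), PSME1 in Yamato-SS (1.38, against 0.23 to 0.42), PSMD10 in Fuji (-0.48, against -0.33 to -0.32), PSMD14 in SYO-1 (-0.91, against -1.22 to -1.18) and PSMD8 in Yamato-SS (-0.25, against -0.51 to -0.47) at 3 µM. At 0.3 µM it was the change of PSMF1 in Fuji (0.30, against 0.02 to 0.05).

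Log2 levels that stood apart included PSMD6 in Yamato-SS at every dose, with 14.04 at 0 µM, 13.90 at 0.3 µM and 13.78 at 3 µM, above all other lines. PSME1 in Yamato-SS was low at 0 µM (9.998, against 11.59 to 11.84). Single doses were affected for PSMB2 in Aska-SS at 3 µM (11.47), PSMC1 in SYO-1 at 0 µM (12.60), PSMD8 in Fuji at 0 µM (12.85) and in Aska-SS at 0.3 µM (12.42), PSMD9 in Yamato-SS at 0 µM (11.31) and PSME4 in Yamato-SS at 0.3 µM (10.42).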

How the results depend on the processing

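Of the 26 genes that fell at 3 µM, all 26 kept their call without quantile normalization, with the other floors, filters and probe set rule and with array weights, 24 with only the arrays of both doses, and 25 without the mean-variance trend. Without 1 line, 24 to 25 of the 26 kept their call (those lost were PSMB5, PSMA1 or both), and 24 to 26 were lower and 3 to 4 higher in all, with a median of -0.49 to -0.40. The median was -0.50 without quantile normalization or with the filter at the 65th percentile. At 0.3 µM, 3 genes fell and 0 rose without a filter and likewise without the trend, 2 rose with array weights or only the arrays of both doses, and without 1 line 0 to 7 fell, 0 rose, and the median was -0.23 to -0.17. Between 3 and 0.3 µM, 1 rose without the trend, and without 1 line 10 to 15 fell, 1 to 2 rose, and the median was -0.27 to -0.19.

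Without the replicate block (the pairing by line), 9 genes fell and 1 rose at 3 µM (209 and 174 of all 12132), and 0 passed at 0.3 µM or between 3 and 0.3 µM (limma; 8 and 10 were lower at an unadjusted p under 0.05). Of all 12132 genes 0 passed there either (319 and 620 at an unadjusted p under 0.05).

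The response of 1 gene in Fuji, PSMB10, differed from the other lines without quantile normalization, with log2(value + 16), with the filter at the 65th percentile and with the mean of probe sets, and that of 1 gene in Yamato-SS, PSME1, without quantile normalization. The sign turned for genes that had not passed. This held for PSMB4 (-0.029) and UBB (0.12) without quantile normalization, for PSMB4 (-0.13), MAFF (-0.020) and UBQLN4 (0.088) with the mean of probe sets, and for PSMB9 with array weights (-0.037). Leaving out a line gave -0.0091 to 0.049 for PSMB4, -0.067 to 0.061 for PSMB7, -0.37 to 0.28 for PSMB9, -0.067 to 0.068 for PSMD5, -0.027 to 0.15 for PSMG4 and -0.15 to 0.56 for MAFF. Of the genes that passed, PSMF1 turned with the mean of probe sets (-0.12). The cause of these differences was not tested. No line has a repeat culture, so the spread within a line is unknown, and a dim gene such as PSMB8 or PSMB9 has no measured change where it lies near the floor.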
